A study of Rattus norvegicus with 19 samples.

Results

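Thymus RNA of rats gavaged with corn oil at 5 ml/kg was compared with that of rats gavaged with corn oil at 2 ml/kg, on 4 and 5 of the 19 arrays of the study. Members were chosen by the volume in the array titles, and every probe was used. The animals were female Wistar rats, used at an age of 7 weeks and dosed once daily for 14 days. The study's other arrays held saline at 10 ml/kg (5 arrays) and corn oil at 10 ml/kg (5 arrays), which enter here only as part of the fitted spread and as reference levels. Both groups compared received oil and neither received saline, so the volume of liquid and the amount of oil rose together and cannot be told apart. The protocol gave 6 animals per group and 3 per cage, and cages were not labelled. Each numbered replicate was taken as a separate animal, and p-values measure only the spread between these arrays.

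The thymus is the organ in which T cells are made. Precursors divide and rearrange their receptor genes in the cortex as cells carrying both CD4 and CD8, and the few that survive selection by thymic epithelium mature in the medulla and leave. The organ is sensitive to glucocorticoids and involutes with stress and age, when fat takes up more of it. Corn oil, a common vehicle for lipophilic compounds, consists mostly of triglycerides rich in linoleic acid. Fatty acids from a meal act on nuclear receptors of the PPAR family, whose targets include genes of fatty acid oxidation, and polyunsaturated fatty acids hold down genes of fatty acid synthesis through SREBP-1c. The question was whether more oil at volumes below 10 ml/kg moved any of these programmes.

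Levels are log2 intensities relative to the 75th percentile of the same array, so a level of 0 lies at that percentile and a difference of 1 is 2-fold. The tissue label was borne out by its markers. Rag1, which cuts the receptor genes, lay at 5.49, 5.23, 5.51 and 5.41 in 5 ml/kg replicates 1 to 4 and at 5.43, 5.72, 5.56, 5.27 and 5.58 in 2 ml/kg replicates 1 to 5. All 14 tested markers of cortical thymocytes were well above background on all 9 arrays. Between 76.5% and 88.4% of spots were well above background on these arrays.

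The layout limited the comparison. Slide 2 held 5 ml/kg replicates 1, 3 and 4 beside 2 ml/kg replicate 5, and it was the only slide with both groups. The remaining 5 ml/kg array, replicate 2, lay on slide 5, while 2 ml/kg replicates 2 and 3 lay on slide 1 and replicates 1 and 4 on slide 4. Slides 4 and 5 were scanned on the same day. Slide explained 98.5% of the first principal component of all 19 arrays, which carried 55.4% of the variance, and group explained 39.4%. Correlations across genes, which are not independent replicates, were 0.991 to 0.992 between the groups on slide 2 and 0.950 to 0.992 between the groups on different slides. Values with slide as a block are therefore given beside many main ones that they move. Differences within slide 2 and within the shared scan day are given for the first 5 of the genes nearest to the threshold. They are also given for the 1 gene called with the block. Within slide 2 the 2 ml/kg group is a single array, and those differences are given as values with no test. The slide-blocked values lean on that same array, 2 ml/kg replicate 5, since only slide 2 compares the groups directly. The rest of their information is indirect, through the saline arrays and the oil arrays of the highest volume. The errors and adjusted p-values given for slide-blocked values do not remove this limit.

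No gene differed between 5 and 2 ml/kg corn oil at an adjusted p of 0.05. Of 22667 genes tested with limma, 0 were called (0%), and the lowest adjusted p was 0.534. At an unadjusted p under 0.05 there were 2078 genes, 9.17% of those tested, 259 of them higher (1.14%) and 1819 lower (8.02%) at 5 ml/kg. With slide as a block 1 gene was called, 0.00441% of those tested, and 1393 had an unadjusted p under 0.05 (6.15%), of which 814 were higher (3.59%) and 579 lower (2.55%). With scan day as a block 0 genes were called, at a lowest adjusted p of 0.426. Weighting the arrays by their estimated precision ended the count of 0: 83 genes were then called, 16 higher and 67 lower, and 0 with the slide block as well. In the same fit, 10 ml/kg corn oil differed from 2 ml/kg in 2519 genes (11.1%) and from 5 ml/kg in 1718 genes (7.58%), and neither 5 nor 2 ml/kg differed from saline in any gene (0%, with 0 genes called in each). The comparison of 5 with 2 ml/kg was thus the one between oil groups with no called gene in the unblocked fit. The 10 ml/kg arrays lay on slides 3 and 5, and no slide held both 10 and 2 ml/kg arrays. The unblocked contrast of 10 with 2 ml/kg is therefore also one between slides.

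The intervals show what sizes each fit could resolve, given the spread it assumes. The 95% interval of the difference reached a median of 0.42 to either side on the log2 scale over all genes, from 0.21 at the 5th percentile to 1.61 at the 95th. For 69.3% of the genes the whole interval lay within 2-fold in either direction. Of the 18331 genes well above background on all 9 arrays the share was 79.5%, and over all genes with the slide block it was 73.8%. For these genes a 2-fold difference in either direction lies outside the 95% interval of that fit. The unblocked fit takes arrays of a slide as independent. Its intervals therefore do not cover a difference between slides, which is mixed with volume here. The slide-blocked intervals lean on 2 ml/kg replicate 5.

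**Figure D1:**
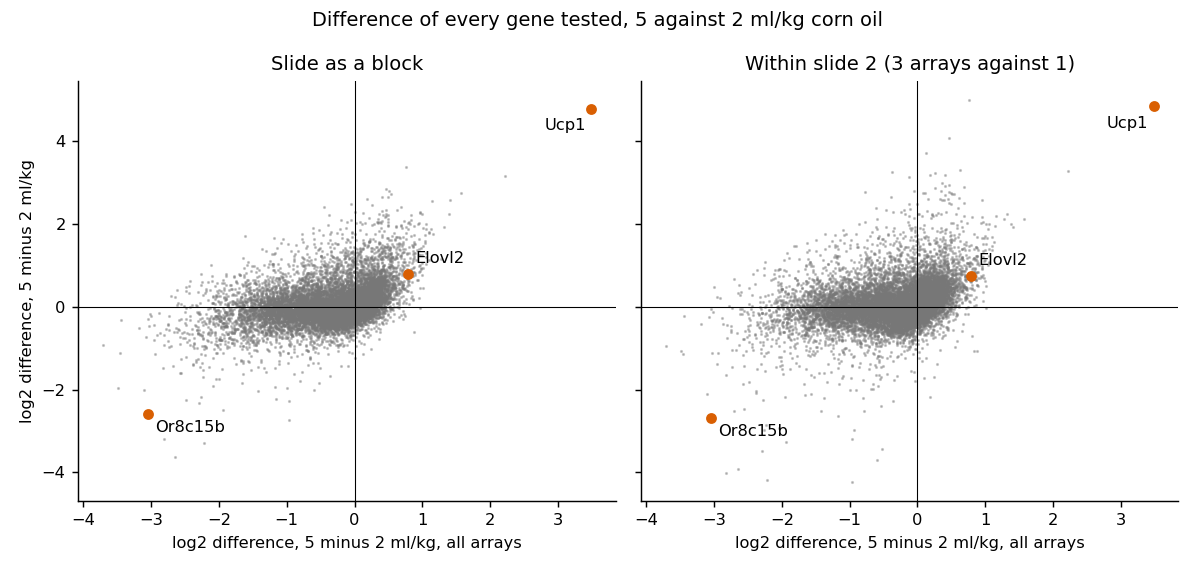
Each point is 1 of the genes tested, with the log2 difference of 5 minus 2 ml/kg over all arrays on the horizontal axis and, on the vertical axes, the difference with slide as a block (left) or within slide 2, 3 arrays against 1 (right). Most genes far to the left over all arrays lie near 0 on both vertical axes, and Or8c15b, Elovl2 and Ucp1 keep their side in both.

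The genes nearest to the threshold are given as measured values, since none was called. They were chosen after the values were seen, as the 20 named genes with the smallest p whose sign was the same within slide 2. Elovl2, an elongase that lengthens polyunsaturated fatty acids, came first. Its level was -5.44, -5.49, -5.46 and -5.43 in 5 ml/kg replicates 1 to 4 and -6.04, -6.88, -6.01, -6.08 and -6.20 in 2 ml/kg replicates 1 to 5. The groups did not overlap, and the 4 arrays at 5 ml/kg lay within 0.1 of each other, while 2 ml/kg replicate 2 was the lowest of the 9. The difference was 0.79 ± 0.15 (SE), or 0.80 ± 0.21 with the slide block (adjusted p = 0.534 and 0.445). It was 0.76 within slide 2 and 0.57 within the shared scan day. Elovl2 was dim, well above background on 4 of 4 and 3 of 5 arrays, and lay at -6.20 to -5.79 on the saline arrays and at -6.53 to -6.07 at 10 ml/kg.

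Plscr4, of the phospholipid scramblase family, was the other of the first 5 with a positive difference. It lay at -6.31, -6.29, -6.52 and -6.55 at 5 ml/kg and at -6.81, -7.44, -7.41, -6.98 and -6.95 at 2 ml/kg, and it was well above background on 2 of the 5 arrays at 2 ml/kg. The groups did not overlap, and the 2 lowest values came from slide 1. The difference was 0.70 ± 0.16, or 0.59 ± 0.18 with the slide block (adjusted p = 0.534 and 0.530). It was 0.49 within slide 2 and 0.61 within the shared scan day.

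Of the 20 genes, 14 were above background on all 9 arrays and did not overlap, and 0 of these 14 were higher at 5 ml/kg. Choosing by small p favours genes without overlap, so the count follows largely from the choice. Over all genes 3.64% did not overlap, and 1819 of the 2078 with an unadjusted p under 0.05 were lower. Wdr33, a subunit of the complex that cleaves and polyadenylates pre-mRNA, lay at -1.54, -1.14, -1.75 and -1.61 at 5 ml/kg and at -1.07, -0.86, -0.98, -0.98 and -1.02 at 2 ml/kg. The difference was -0.53 ± 0.11, or -0.51 ± 0.12 with the slide block (adjusted p = 0.534 and 0.401). Within slide 2 it was -0.61 and within the shared scan day -0.12. Src, the founding member of its family of tyrosine kinases, lay at -3.64, -3.39, -3.78 and -3.82 at 5 ml/kg and at -3.13, -3.30, -3.12, -3.24 and -3.22 at 2 ml/kg. Both genes had their highest 5 ml/kg value in replicate 2, the array on slide 5. The difference of Src was -0.46 ± 0.10, or -0.50 ± 0.12 with the slide block. Within slide 2 it was -0.53 and within the shared scan day -0.20. At 10 ml/kg, on other slides than the same 2 ml/kg arrays, Src was higher by 0.63 (adjusted p = 0.000649).

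Phf12, a PHD finger protein of histone deacetylase complexes, lay at -1.998, -2.08, -2.14 and -2.21 at 5 ml/kg and at -1.66, -1.80, -1.71, -1.64 and -1.79 at 2 ml/kg. The groups did not overlap, and the difference was -0.39 ± 0.09, or -0.33 ± 0.09 with the slide block (adjusted p = 0.534 and 0.497). Within slide 2 it was -0.33 and within the shared scan day -0.43. Further genes among these 14 were the adhesion protein Amigo3 (-0.55), the gamma-glutamyltransferase family member Ggt7 (-0.52), the dehydrogenase Dhrsx (-0.61) and the clathrin adaptor Hip1r (-0.52). Their slide-blocked differences were -0.45, -0.62, -0.64 and -0.43. Rhcg, an ammonium transporter, differed by -1.24 ± 0.28 but was above background on only 2 of 4 and 3 of 5 arrays, overlapped between groups, and differed by -0.60 with the slide block. With array weights Elovl2, Wdr33, Src and Phf12 passed the threshold (adjusted p = 0.0225 each). Leaving out 5 ml/kg replicate 2 brought Wdr33 and Rhcg past the threshold, both at an adjusted p of 0.0431.

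The 1 gene called with the slide block was Or8c15b, an odorant receptor of the large olfactory receptor family. It lay at -9.57, -8.06, -9.43 and -8.99 at 5 ml/kg, not well above background on any of these 4 arrays, and at -7.53, -4.61, -4.06, -7.01 and -6.64 at 2 ml/kg, above background on 4 of 5. The groups did not overlap, and the 2 highest values came from slide 1. Taken against the lowest measurable signal, the 5 ml/kg mean without the block was at least 2.86-fold lower. That figure includes the 2 high slide 1 arrays and does not bound the slide-blocked or scan-day differences. The slide-blocked difference was -2.59 ± 0.28 (adjusted p = 0.00894) and the difference without the block -3.04 ± 0.80 (adjusted p = 0.534). Within slide 2 it was -2.69 and within the shared scan day -0.79. The call did not hold under every setting. The slide-blocked adjusted p was 0.194 from the deposited value table, 0.173 with only the 9 arrays, 0.105 without slide 1, 0.0983 without 2 ml/kg replicate 5 and 0.509 with array weights. With normexp background correction the slide-blocked difference was 0.33 (adjusted p = 0.883), on the other side of 0. Members of this receptor family resemble each other in sequence, and cross-hybridisation of the probe was not tested.

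After Or8c15b the smallest slide-blocked p-values belonged to genes that were not called at an adjusted p of 0.282 or more. Med21, a subunit of the Mediator complex, lay at -3.93, -4.21, -3.95 and -3.87 at 5 ml/kg and at -3.72, -3.76, -3.64, -3.71 and -3.35 at 2 ml/kg, a slide-blocked difference of -0.61 ± 0.11. The myelin enzyme Cnp (-0.54) and the RNA helicase Skic2 (-0.44) had slide-blocked differences of the same sign. For all 3 the groups did not overlap. Ccr7, the chemokine receptor that draws maturing thymocytes into the medulla, lay at -2.14, -1.72, -1.57 and -1.69 at 5 ml/kg and at -1.51, -1.38, -1.48, -1.68 and -1.07 at 2 ml/kg. The groups overlapped, and the highest of the 9 was 2 ml/kg replicate 5, the array on slide 2. The slide-blocked difference was -0.71 ± 0.16 (adjusted p = 0.394). The slide-blocked difference of Dlk1, an inhibitor of fat cell differentiation, was 1.90 and that without the block -0.61. The single 2 ml/kg array of slide 2 had a Dlk1 level of -7.40 against -3.12 to -2.65 on the others of its group.

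**Figure D2:**
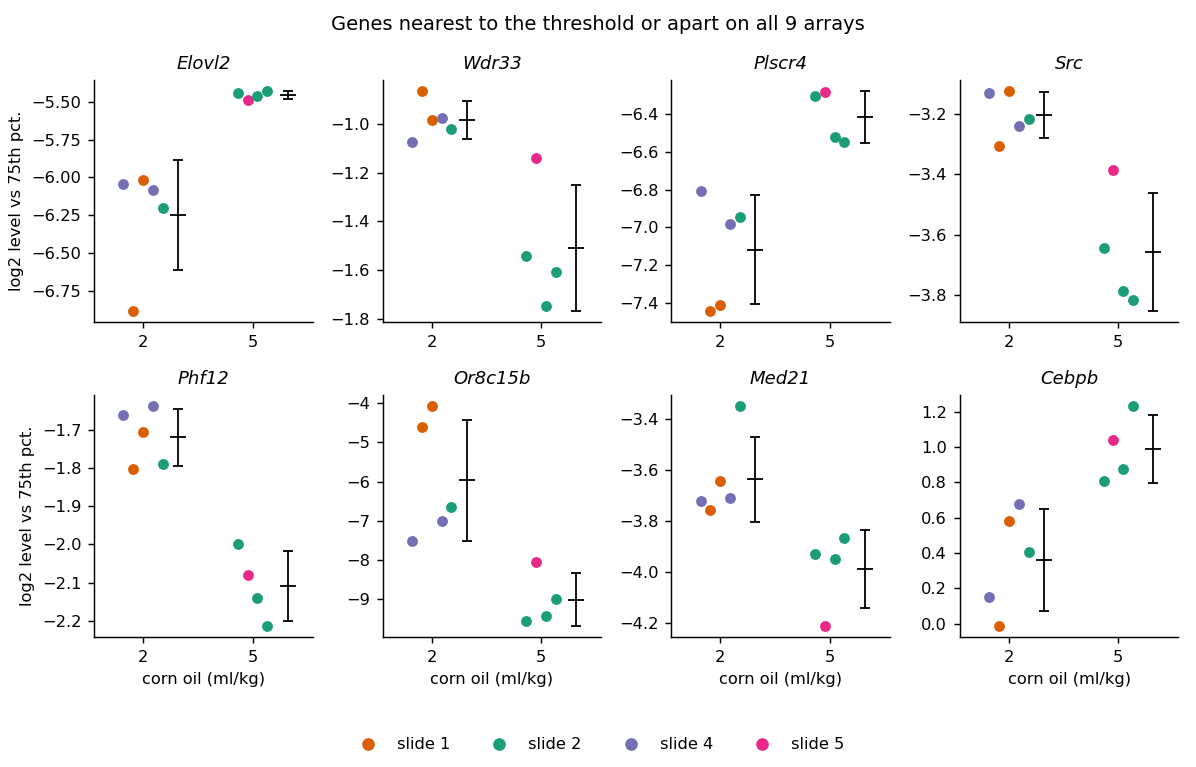
Log2 level relative to the 75th percentile of the array for 8 genes, by volume of corn oil, with 1 point per array coloured by slide and the mean with its SD beside the points. Elovl2, Plscr4 and Cebpb lie higher and the other 5 genes lower at 5 ml/kg on all 9 arrays, and no gene shown was called without the slide block.

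All arrays of the groups lay apart for 824 genes, 3.64% of those tested, of which 300 were higher (1.32%) and 524 lower (2.31%) at 5 ml/kg. The sign was the same within slide 2 for 823 of them and within both slide 2 and the shared scan day for 818, which non-overlap nearly fixes. Among those measured on all 9 arrays, 12 genes were chosen by the largest of their smallest difference over the 3 comparisons. Cebpb, a transcription factor of fat cell differentiation and the acute phase, was the only one of the 12 with a higher level at 5 ml/kg. It lay at 0.81, 1.04, 0.87 and 1.23 at 5 ml/kg and at 0.15, -0.02, 0.58, 0.68 and 0.41 at 2 ml/kg. The difference was 0.63 ± 0.29, or 0.71 ± 0.40 with the slide block (adjusted p = 0.534 and 0.870). Slc5a10, a sugar transporter, differed by -0.94 ± 0.24, Clcn7, a chloride transporter of lysosomes, by -0.68 ± 0.19, and Serpina1, the plasma protease inhibitor alpha-1-antitrypsin, by -1.29 ± 0.40. With the slide block these were -0.89 ± 0.37, -0.49 ± 0.21 and -1.01 ± 0.61 (adjusted p = 0.773, 0.773 and 0.887). For each of them the highest 2 ml/kg value came from replicate 3, on slide 1.

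Most differences over 2-fold ran in 1 direction and followed slide 1. There were 2057 genes with a difference over 2-fold without the block, 2032 of them lower at 5 ml/kg. With the slide block 100 of these were over 2-fold in the same direction, and without slide 1 350 were. The direction remained without slide 1, where 441 genes differed by over 2-fold and 366 of them were lower. Olfactory receptor genes, which are used for smell and were dim on these arrays, show the dependence on slide. Of 386 tested, 0 were called without the block and 237 were lower by over 2-fold, with a median difference of -1.25. Their mean level was -4.74 and -4.07 on the 2 ml/kg arrays of slide 1, -5.71 and -5.71 on those of slide 4 and -6.98 on that of slide 2, against -6.92, -6.08, -6.75 and -6.99 in 5 ml/kg replicates 1 to 4. Their median difference was -0.02 with the slide block, 0.06 within slide 2 and -0.55 without slide 1. Within slide 2 the direction was the opposite over all genes: 763 differed by over 2-fold there, 587 of them higher and 176 lower at 5 ml/kg.

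Genes of the thymus itself came next, in 35 lists of genes by cell type or response. Of 581 list genes tested, 0 were called, 38 had an unadjusted p under 0.05 (6.54%, against 9.17% of all genes), and 10 were higher and 11 lower without overlap (1.72% and 1.89%, against 1.32% and 2.31% of all genes). The median difference of all genes was -0.03, or 0.01 with the slide block, and list medians are read beside it. Scaling each array to its median in place of its 75th percentile moved the median of all genes to 0.22, and every difference with it.

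Cortical thymocyte genes lay close together in both groups. The median difference of the 14 tested was -0.04, or -0.12 with the slide block, and 4 of 14 were above 0. The difference of Rag1 was -0.10 ± 0.14, with a 95% interval of -0.40 to 0.19. Dntt, which adds bases at receptor joints, differed by -0.17 ± 0.21, Rag2, the partner of Rag1, by 0.17 ± 0.18 and Cd8a, a chain of the CD8 coreceptor, by -0.06 ± 0.11. With the slide block Dntt differed by -0.05 and Cd8a by -0.21. Cd4, the other coreceptor of these cells, had the largest departure for its error. It lay at 0.73, 0.57, 0.31 and 0.18 at 5 ml/kg and at 0.75, 0.91, 0.70, 0.63 and 0.85 at 2 ml/kg. The groups overlapped through 5 ml/kg replicate 1, and the difference was -0.32 ± 0.13, or -0.41 ± 0.18 with the slide block (adjusted p = 0.534 and 0.783). Tcf12, a transcription factor of early T cells, differed by 0.39 without the block and by -0.05 with it.

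Genes of mature thymocytes and T cells had a median difference of -0.20, and 1 of the 16 tested was above 0. The median was -0.18 with the slide block, -0.20 within slide 2 and -0.12 within the shared scan day, and with quantile normalization it was -0.04, close to that of all genes there (0.04). Itgb7, an integrin chain of circulating lymphocytes, lay at 1.19, 1.46, 1.61 and 1.37 at 5 ml/kg and at 1.78, 1.74, 1.65, 1.63 and 1.94 at 2 ml/kg. The groups did not overlap, though 5 ml/kg replicate 3 and 2 ml/kg replicate 4 nearly met, and the difference was -0.34 ± 0.13 (adjusted p = 0.534). The mean level of the list was -1.85 in 5 ml/kg replicate 1 and -1.47 to -1.43 in replicates 2 to 4, against -1.49 to -1.27 at 2 ml/kg. Leaving out replicate 1 of 5 ml/kg moved the median difference to -0.15. In whole tissue, fewer cells of a type and less RNA per cell cannot be told apart. Of the receptor signalling genes 4 of 16 were above 0, with a median of -0.04, or -0.14 with the slide block. Plcg1, the phospholipase that passes on the receptor signal, did not overlap (-0.13 to 0.02 against 0.11 to 0.21) and differed by -0.19 ± 0.11.

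Thymic epithelium gave no called gene either. The median difference was 0.02 for 12 cortical markers and -0.09 for 14 medullary ones, or -0.10 and -0.18 with the slide block. Foxn1, the transcription factor that makes the epithelium, lay at -4.85, -4.87, -4.96 and -5.09 at 5 ml/kg and at -4.54, -4.76, -3.45, -4.38 and -4.63 at 2 ml/kg. The groups lay apart, the highest value came from slide 1, and the difference was -0.59 ± 0.25, or -0.38 ± 0.32 with the slide block (adjusted p = 0.534 and 0.944). Dll4, the Notch ligand that commits precursors to the T lineage, differed by -1.21 on 1 probe, or -0.24 with the slide block, and by 0.45 on another probe. Aire, which lets medullary cells show proteins of other tissues, was at -6.39 to -5.75 at 5 ml/kg and -6.58 to -5.50 at 2 ml/kg, a difference of -0.13 ± 0.23, or -0.31 ± 0.33 with the slide block. Spink5, a protease inhibitor of keratinising epithelium, differed by -0.83, and by 0.03 with the slide block.

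Cell cycle genes were above 0 throughout, without any of them passing the test. All 23 tested had a positive difference, with a range of 0.02 to 0.39 and a median of 0.24. Members of a list are not independent, and the groups overlapped in the mean level of the list. It was 2.32 to 2.70 at 5 ml/kg, 2.13 to 2.57 at 2 ml/kg and 1.85 to 2.62 on the saline arrays. Of all genes tested 44.2% were above 0. Of the 7009 bright genes (mean level over the 75th percentile) 66.6% were, with a median of 0.05, or 57.7% and 0.03 with the slide block. These 7009 genes were not matched to the list, whose mean level lay well above that percentile. The list median was 0.42 with the slide block (22 of 23 above 0), 0.35 within slide 2 and 0.10 within the shared scan day, and it was 0.20 with quantile normalization. Ccna2, the cyclin of DNA synthesis and mitotic entry, lay at 3.94, 3.70, 3.57 and 3.72 at 5 ml/kg and at 3.43, 3.19, 3.23, 3.72 and 3.25 at 2 ml/kg. Only 2 ml/kg replicate 4 reached the 5 ml/kg range, and the difference was 0.37 ± 0.15, or 0.53 ± 0.23 with the slide block (adjusted p = 0.534 and 0.787). The mitotic kinase Aurka (0.35 ± 0.16) and the replication helicase subunit Mcm4 (0.34 ± 0.18) gave like values. Rrm2, a subunit of the enzyme that makes deoxyribonucleotides and named here after its values were seen, was the single member without overlap, at 5.29 to 5.58 against 4.88 to 5.28, where 1.32% of all genes lay apart on that side.

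The oxidative phosphorylation list showed small differences of 1 sign. All 22 members were above 0, against 66.6% of bright genes, from 0.01 to 0.43, with a median of 0.13, or 0.17 with the slide block and 0.06 both within the shared scan day and with quantile normalization. Of the 22, 4 did not overlap, all higher at 5 ml/kg, against 1.32% of all genes, namely Cox5a, Ndufb3, Ndufa4 and Ndufb8 (the last 2 named after their values were seen). Ndufb3, a subunit of complex I, lay at 4.09, 4.02, 4.07 and 4.06 at 5 ml/kg and at 3.84, 3.85, 3.88, 3.92 and 3.97 at 2 ml/kg. The 4 arrays at 5 ml/kg lay close together and above all 5 at 2 ml/kg. Its difference of 0.17 ± 0.11, with the error taken over all 19 arrays, had an adjusted p of 0.643. With only the 9 arrays compared, 0 list genes were called as well. Cox5a, of complex IV, differed by 0.24 ± 0.16, and Sdhc, of complex II, by 0.19 ± 0.12 with overlap. The 22 ribosomal protein genes had a median of 0.03, and the 12 heat shock genes one of 0.04. Of the heat shock genes, the mitochondrial chaperonins Hspe1 and Hspd1 differed by 0.20 ± 0.14 and 0.14 ± 0.15.

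**Figure D3:**
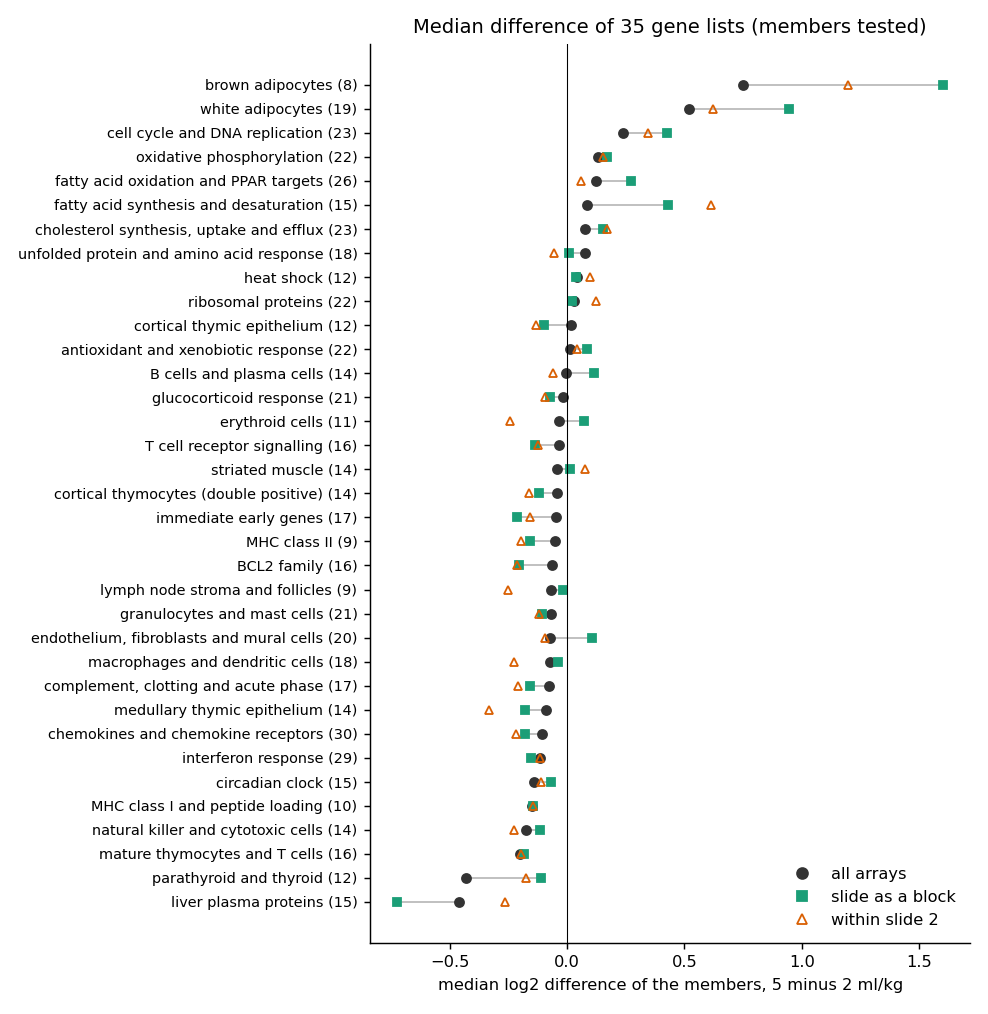
Median log2 difference of the tested members of 35 gene lists, 5 minus 2 ml/kg, over all arrays (circles), with slide as a block (squares) and within slide 2 (triangles), with the number of members tested in parentheses. The brown and white adipocyte lists lie farthest to the right on all 3 measures, and no member of any list was called.

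The largest difference among list genes was that of a brown fat gene, and the fat cell genes divided the 2 ml/kg group. Ucp1, which uncouples mitochondria to make heat in brown fat, lay at 2.55, 3.34, 0.10 and 3.58 in 5 ml/kg replicates 1 to 4 and at -3.55, -5.50, 3.32, 3.03 and -2.77 in 2 ml/kg replicates 1 to 5. Thus 2 ml/kg replicates 3 and 4 were as high as the 5 ml/kg arrays and the other 3 were lower by many fold. The difference of 3.49 ± 2.08 had a 95% interval of -0.91 to 7.89 (adjusted p = 0.580). Cidea, a lipid droplet protein of brown fat, split the same way, at 2.06, 2.25, 0.14 and 2.65 against -2.17, -2.74, 2.41, 1.97 and -1.67, and differed by 2.22 ± 1.30. The saline arrays ranged from -6.16 to 4.95 for Ucp1, so the spread within a group exceeded the difference between the groups.

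White fat genes divided the 2 ml/kg group less sharply. For Adipoq and the mean level of the list, replicates 3 and 4 were again the highest of that group. Replicate 5 lay between them and replicates 1 and 2. Adipoq, the hormone adiponectin, lay at 1.36, 2.03, 1.69 and 1.69 at 5 ml/kg and at 0.09, -0.08, 1.86, 1.92 and 1.25 at 2 ml/kg, a difference of 0.68 ± 0.94, or 1.27 ± 1.24 with the slide block. Fabp4, the fatty acid carrier of fat cells, differed by 0.80 ± 0.71 (1.45 with the block) and Lpl, the lipase that takes up circulating triglyceride, by 0.57 ± 0.54 (0.95 with the block). Of 19 white fat genes 18 were above 0, with a median of 0.52, or 0.95 with the slide block. The mean level of this list was 0.11, 0.40, -0.13 and 0.40 at 5 ml/kg and -1.09, -1.15, 0.67, 0.52 and -0.45 at 2 ml/kg. Of 8 brown fat genes 7 were above 0, with a median of 0.75, or 1.60 with the slide block, and leaving out single arrays moved the unblocked median between 0.55 (without 2 ml/kg replicate 2) and 1.01 (without 2 ml/kg replicate 3). The white fat median moved between 0.28 and 0.76 when the same arrays were left out.

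Genes of fatty acid synthesis, which fat cells also express, were high and low on the same 2 ml/kg arrays, and the part of fat tissue in their values was not tested. Fasn, the fatty acid synthase, lay at 3.41, 3.87, 3.00 and 3.55 at 5 ml/kg and at 2.66, 2.08, 4.43, 4.18 and 2.49 at 2 ml/kg. As for Ucp1, 2 ml/kg replicates 3 and 4 were high, here above all 5 ml/kg arrays, and the difference was 0.29 ± 0.58, or 0.88 ± 0.84 with the slide block and 0.83 within slide 2. Scd, which desaturates stearate, differed by 0.37 ± 0.95, or 1.26 ± 1.20 with the slide block and 0.61 within slide 2. The median of the 15 genes was 0.08, or 0.43 with the slide block, and 10 of 15 were above 0. Gpam, which starts glycerolipid synthesis, was dim and differed by 0.18 ± 0.09 (0.20 with the block), and the desaturase Fads1 by 0.16 ± 0.15 (0.32 with the block).

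**Figure D4:**
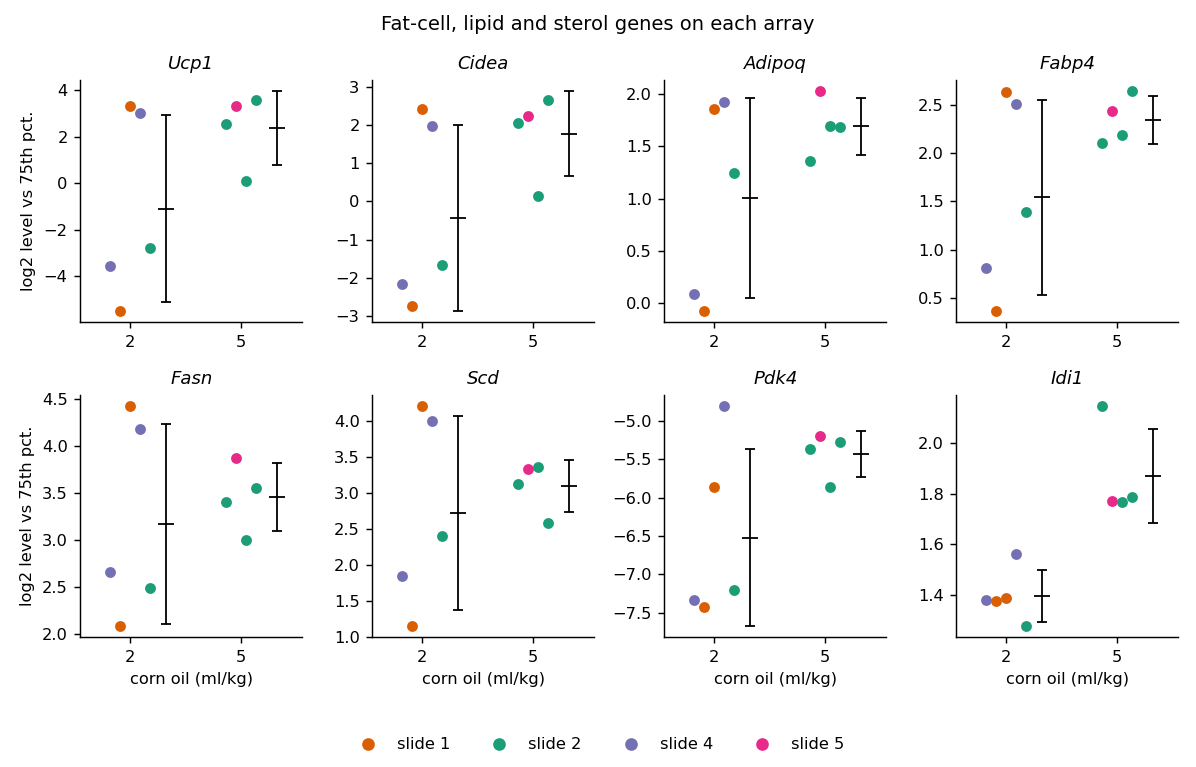
Log2 level relative to the 75th percentile of the array for 8 fat cell, lipid and sterol genes, by volume of corn oil, with 1 point per array coloured by slide and the mean with its SD. For Ucp1, Cidea, Fasn and Scd, 2 ml/kg replicates 3 and 4 lie with or above the 5 ml/kg arrays while the other 3 lie low, and for Idi1 all 4 arrays at 5 ml/kg lie above all 5 at 2 ml/kg.

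No gene of fatty acid oxidation or PPAR target was called. The median of 26 genes was 0.12, or 0.27 with the slide block, and 18 of 26 were above 0. Cpt1a, the enzyme that admits fatty acids to mitochondria, lay at -1.98, -1.40, -1.23 and -1.55 at 5 ml/kg and at -1.44, -1.50, -1.63, -1.45 and -1.16 at 2 ml/kg. The groups overlapped, the lowest value was 5 ml/kg replicate 1, and the difference of -0.10 ± 0.14 had a 95% interval of -0.39 to 0.19. With the slide block it was -0.36 ± 0.19, with an interval of -0.77 to 0.05, and within slide 2 it was -0.43. At 10 ml/kg, on other slides than the same 2 ml/kg arrays, Cpt1a was higher by 0.67 (adjusted p = 0.00413). Pdk4, which spares glucose when fat is burnt, lay at -5.37, -5.19, -5.86 and -5.28 at 5 ml/kg and at -7.33, -7.42, -5.86, -4.80 and -7.20 at 2 ml/kg, with 2 ml/kg replicates 3 and 4 high as for Ucp1. Pdk4 was dim, well above background on 4 of 4 arrays at 5 ml/kg and on 2 of 5 at 2 ml/kg. Its difference was 1.10 ± 0.68, with an interval of -0.34 to 2.53, or 1.79 ± 1.00 with the slide block. The receptor gene Ppard differed by -1.22, and by -0.20 with the slide block. Ucp2, an uncoupling protein of immune cells, differed by -0.20 ± 0.12.

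No cholesterol gene was called either. The median of the 23 genes of synthesis, uptake and efflux was 0.08, or 0.15 with the slide block, and 17 of 23 were above 0. Idi1, an isomerase of the sterol pathway, lay at 2.15, 1.77, 1.77 and 1.79 at 5 ml/kg and at 1.38, 1.37, 1.39, 1.56 and 1.28 at 2 ml/kg. The groups did not overlap, 5 ml/kg replicate 1 was highest, and the difference was 0.47 ± 0.17, or 0.64 ± 0.21 with the slide block (adjusted p = 0.534 and 0.599). Sqle, which makes the epoxide of squalene, differed by 0.38 ± 0.15 and Lss, which closes it to lanosterol, by 0.29 ± 0.14, the latter by 0.16 with the slide block. Hmgcs1, the synthase ahead of the statin target, lay at 2.32, 2.00, 1.99 and 2.32 at 5 ml/kg and at 1.97, 1.79, 2.08, 2.21 and 1.81 at 2 ml/kg, with overlap and a difference of 0.19 ± 0.17, or 0.40 ± 0.18 with the slide block.

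Genes of stress and cell death followed, again with none called. For Fkbp5, a glucocorticoid-induced chaperone of the receptor, the level was 2.74, 2.52, 2.48 and 2.49 at 5 ml/kg and 2.31, 2.44, 2.26, 2.37 and 2.35 at 2 ml/kg. The groups lay narrowly apart, and the difference was 0.21 ± 0.12, or 0.10 ± 0.16 with the slide block (adjusted p = 0.559 and 0.989). The metallothionein Mt1 lay at 3.47, 3.43, 3.45 and 3.37 against 3.18, 2.96, 2.72, 3.22 and 3.05, a difference of 0.41 ± 0.19, or 0.53 ± 0.17 with the block (adjusted p = 0.534 and 0.576). Tsc22d3, the glucocorticoid-induced leucine zipper of lymphocytes, differed by 0.05 ± 0.21 (0.10 with the block), and the 21 genes of the list had a median of -0.02, or -0.07 with the block. The members without overlap were Fkbp5, Mt1 and the metallothionein Mt2A (0.17 ± 0.15, or 0.37 with the block) on the higher side and the zinc finger factor Zbtb16 (-0.73 ± 0.49, or -0.08 with the block) on the lower, the last 2 named after their values were seen. These were 3 and 1 of 21 members, where 1.32% and 2.31% of all genes lay apart. The 16 genes of the BCL2 family, which governs thymocyte death, had a median of -0.06, or -0.20 with the block. Bax, which opens the mitochondrial membrane, differed by -0.35 ± 0.15 and Bad, a sensor that binds BCL2, by -0.44 ± 0.19, the latter by 0.06 with the slide block.

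The other stress lists had medians of 0.07 for 18 genes of the unfolded protein and amino acid response, 0.01 for 22 antioxidant and xenobiotic genes, -0.05 for 17 immediate early genes and -0.14 for 15 clock genes. With the slide block they were 0.01, 0.08, -0.21 and -0.07. Psat1, an enzyme of serine synthesis, lay apart at 2.12 to 2.40 against 1.68 to 1.99, a difference of 0.36 ± 0.16. Trib3, a target of the amino acid response, differed by -0.31 ± 0.13 in the opposite direction. Keap1, the sensor of oxidants that holds NRF2, lay apart at -1.60 to -1.43 against -1.38 to -1.13 and differed by -0.21 ± 0.11, or -0.41 ± 0.10 with the slide block (adjusted p = 0.542 and 0.438). The immediate early gene Fosl2 also lay apart but differed by -0.69 without and -0.35 with the block. Fos differed by -0.37 ± 0.16 with overlap.

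Immune and antigen-presentation lists mostly had medians just below 0, with no called member. The median was -0.11 for 29 interferon response genes (8 above 0), -0.15 for 10 of MHC class I and peptide loading (2 above 0), -0.05 for 9 of MHC class II (1 above 0) and -0.11 for 30 chemokines and their receptors (10 above 0). With quantile normalization they were -0.09, -0.16, -0.07 and 0.00, and with the slide block -0.15, -0.14, -0.16 and -0.18. Leaving out 5 ml/kg replicate 1 moved the unblocked medians to -0.03, -0.09, 0.01 and 0.01, so they lean on that array. Irf9, a transcription factor of interferon signalling, differed by -0.26 ± 0.10, and RT1-A2, a class I heavy chain, by -0.18 ± 0.12. Of 14 natural killer and cytotoxic genes 1 was above 0 and the median was -0.18, or -0.11 with the block. Gzma, a granule protease, was at -1.40 and -1.08 on slide 1 and at -3.42 to -2.58 on the other 7 arrays, a difference of -0.87, or -0.10 with the slide block. Lta and Ltb, the lymphotoxins that organise the medulla and lymph nodes, were lower without overlap in the list of lymph node genes (2 of 9, against 2.31% of all genes). Lta differed by -0.53 ± 0.21, or -0.23 with the slide block. Ltb lay at 2.38, 2.71, 2.32 and 2.62 at 5 ml/kg and at 3.01, 3.00, 2.88, 2.74 and 3.05 at 2 ml/kg, a difference of -0.43 ± 0.19, or -0.51 ± 0.25 with the slide block (adjusted p = 0.534 and 0.816).

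Markers of other cells that a dissected thymus can carry gave these values. The list medians were 0.00 for B and plasma cells, -0.07 for macrophages and dendritic cells, -0.07 for granulocytes and mast cells, -0.04 for erythroid cells and -0.07 for endothelium, fibroblasts and mural cells. With the slide block they were 0.11, -0.04, -0.11, 0.07 and 0.11. The medians were -0.04 for striated muscle, -0.08 for complement, clotting and acute phase genes and -0.43 for parathyroid and thyroid, or 0.01, -0.16 and -0.11 with the slide block. Dcn, a matrix protein of fibroblasts, was at 0.46 in 5 ml/kg replicate 1 and at 1.58 to 2.01 on the other 8 arrays. The macrophage complement gene C1qa was lowest in the same array, at 2.50 against 2.69 to 3.35. The 15 liver plasma protein genes had a median of -0.46, or -0.72 with the slide block and -0.08 without 2 ml/kg replicate 1, whose list level was -2.31 against -4.29 to -3.59 on the other 8. Apoa2, an apolipoprotein of HDL, lay there at -3.60 and on the other arrays at -6.77 to -4.68.

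Of the genes fixed for a large change at 10 ml/kg in earlier results of these data, none was called at 5 ml/kg. Comparisons with 2 ml/kg share those 5 arrays, so both values are set side by side. No slide held both 10 and 2 ml/kg arrays. Vegfb, which encodes a secreted VEGF ligand, lay at -0.82, -0.78, -0.93 and -0.70 at 5 ml/kg and at -0.99, -0.996, -0.73, -0.65 and -0.89 at 2 ml/kg. The groups overlapped, and the difference was 0.04 ± 0.18, with a 95% interval of -0.33 to 0.42, while on the 10 ml/kg arrays it lay at -9.46 to -8.89. Lcn2, a siderophore-binding protein of neutrophils, was at -5.27 to -4.62 at 5 ml/kg, -4.87 to -4.17 at 2 ml/kg and 0.06 to 0.46 at 10 ml/kg. Bad was at -5.39 to -5.10, -5.30 to -4.29 and -0.18 to 0.39 in the same order. Mei1, which acts in meiotic recombination, was at -5.98 to -5.02, -6.04 to -4.85 and -0.13 to 0.43. Gdf3, a ligand of the TGF-beta superfamily, was at -3.14 to -2.52, -3.36 to -2.50 and -8.02 to -6.89. With the slide block the differences from 2 ml/kg at 5 ml/kg were 0.01 for Vegfb, -0.21 for Lcn2, 0.06 for Bad, 0.43 for Mei1 and -0.31 for Gdf3. For each of these 5 genes the 5 and 2 ml/kg ranges overlapped, and the 10 ml/kg arrays lay outside both.

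**Figure D5:**
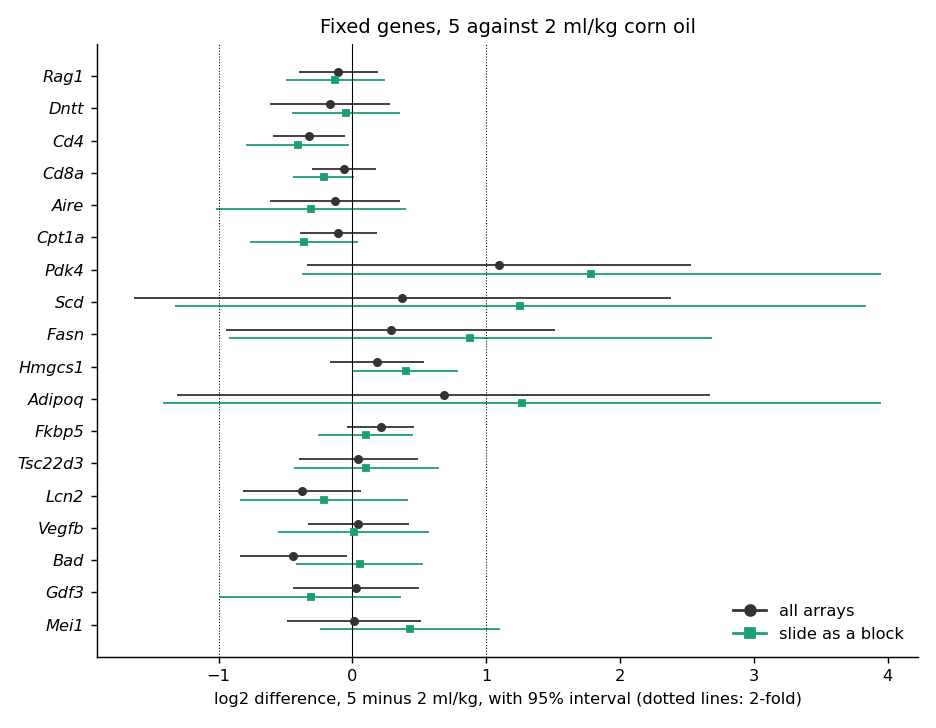
Log2 difference of 5 minus 2 ml/kg with its 95% interval for 18 tested genes of the fixed list, over all arrays (circles) and with slide as a block (squares); dotted lines mark 2-fold. The intervals of Rag1, Cd8a, Cpt1a, Fkbp5 and Vegfb lie within 2-fold on both measures, while those of Scd, Adipoq and Pdk4 extend past it.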

How the data were processed

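Thymus RNA was measured on 1-colour Agilent arrays, labelled with Cy3 after extraction with Trizol, per the labels' protocols. The deposited scanner files hold intensity per spot as Feature Extraction 10.7.3.1 wrote it, per the file headers, and the processed signal is already background-corrected there. A deposited value table of the same arrays, also intensity, served as an alternative. Each array's log2 processed signal was set relative to its 75th percentile. Control spots and spots marked as outliers were left out (1253 missing values in 821 genes), and spots of a probe were averaged. A probe was kept if at least 4 arrays were well above background and each group had at least 2 values, and 1 probe per gene, the brightest, was tested. Probes were named through RefSeq accessions: 17328 of 30367 matched, giving 14629 genes, and 13039 kept the file's identifier. The number of arrays limits the precision, and no spot was saturated.

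All 19 arrays were fitted with 1 mean per group in limma 3.58.1 (R 4.3.3), with Benjamini-Hochberg adjustment over all genes, a threshold of 0.05 and two-sided tests, on 15 residual degrees of freedom (11 with slide as a block). Genes with missing values were fitted on their remaining arrays. The fit was tested on simulated data. Figures were drawn with matplotlib 3.10.9 in Python 3.11.15.

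The members and gene lists were chosen with earlier results of these data known. The rule named genes called in both fits (0 were), a fixed list (19 tested, with Psmb11 not tested), the genes of each list with the smallest p (up to 3), and genes called only with the slide block. Other named genes, chosen after their values were seen, are the 20 with the smallest p, the 10 with the smallest slide-blocked p, 12 without overlap, and Rrm2, Ndufa4, Ndufb8, Mt2A and Zbtb16. The values of 3 named genes are not reported here. Normexp used spot and background medians, since no spot mean was given in the files used here. Alternatives were other background corrections, scalings, filters, weights, blocks, each array left out and, chosen after seeing the data, slide 1 left out.

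Replicate numbers were not used to pair the arrays. The correlations of same-numbered deviations from the group means were -0.00, 0.33, -0.09 and 0.06. Slide was not removed from these deviations, so the correlations cannot settle whether the numbers pair animals.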

Additional observations from a re-analysis of the deposited data

Results flagged for a closer look

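Of 238 groups of 4 or 5 arrays tested, over the named genes and list levels, 18 held 1 array far from the others of its group, and chance flags about 1 in 20. All values are log2 levels relative to the 75th percentile of the array, and no explanation was tested.

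In the 5 ml/kg group, replicate 1 stood apart most often. Its level was above the others for Fkbp5 (2.74) and Idi1 (2.15). It was below them for Dcn (0.458), Serpina1 (-6.05), and the list levels of mature thymocytes and T cells (-1.85), macrophages and dendritic cells (-0.987) and chemokines and their receptors (-2.03). Replicate 2, the array on slide 5, was above the other 5 ml/kg arrays for Dlk1 (-2.47) and Ppard (-4.11).

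In the 2 ml/kg group, replicate 5, the array on slide 2, was apart for Cd8a (4.74), Med21 (-3.35) and Dlk1 (-7.40). Replicate 3 was above the others for Slc5a10 (-2.44) and Clcn7 (-1.36), replicate 2 was below them for Elovl2 (-6.88), and replicate 4 was below them for the MHC class II list (0.981). Replicate 1 was above the others for the liver plasma proteins (-2.31) and for complement, clotting and acute phase genes (-0.728).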

How the results depend on the processing

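The count of 0 called genes without the block held under other background correction, scaling, filters, the 9 arrays alone, scan day as a block, slide as a random block and without slide 1. A fit of slide 2 alone, in which the lone 2 ml/kg array is assumed to vary like the 5 ml/kg arrays, called 0 genes (1332 at an unadjusted p under 0.05), which says nothing about stability. It was 83 with array weights (16 higher, 67 lower), 1 with slide as a block, and 0 to 2 with single arrays left out, the 2 being Rhcg and Wdr33 without 5 ml/kg replicate 2. Genes called both without and with the slide block, and called list members, stayed at 0 in each alternative run. The slide-blocked fit alone called 47 genes without 2 ml/kg replicate 5 (11 higher, 36 lower), 7 without 5 ml/kg replicate 2 and 0 without slide 1. At an unadjusted p under 0.05 the unblocked fit had 293 genes with normexp and 621 without slide 1, against 2078. Genes over 2-fold within slide 2 numbered 763, and 67 with normexp. The cause was not tested. With the replicate block, 0 genes were called and 4661 had an unadjusted p under 0.05, though whether the numbers pair animals is not known. Of 1930 alternative values of 84 named genes, 12 passed the threshold and 108 moved by more than 1 SD, and of 455 list medians 10 did. Dim genes, not above background on every array, are limited by signal.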
